A study of Mus musculus with 24 samples.

Results

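The genes described here are 10 genes of the osteoclast and of RANK signalling, measured in the jaws of mouse embryos at embryonic day 14.5: the ligand Tnfsf11, its decoy receptor Tnfrsf11b, the receptor Tnfrsf11a, the transcription factor Nfatc1, and the osteoclast genes Atp6v0d2, Ocstamp, Itgb3, Acp5, Ctsk and Calcr. They were chosen by name, and the probe set that stands for each gene is the one with the highest mean of all 24 arrays. All 10 were among the 18193 genes of the array with a probe set of 1 symbol, and 9 were among the 13942 genes tested. Calcr stayed below the filter on low values on all 24 arrays.

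The study compared embryos of a C57B6 background from crosses of Wnt1-Cre;Alk5 fl/+ with Alk5 fl/fl mice. Alk5, whose gene symbol is Tgfbr1, is the type I receptor for TGF-beta, and Wnt1-Cre recombines in the neural crest lineage, which gives rise to most of the facial skeleton but not to blood-derived cells. Mutants were recognised by cleft palate and a calvarial defect, and controls were littermates whose genotype is not given further, so they may carry floxed alleles or Cre. Mandible and maxilla were each divided into a distal and a proximal part, whose compartment the labels name as bone, which gave 8 groups of 3 arrays: control and mutant distal mandible, proximal mandible, distal maxilla and proximal maxilla.

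Osteoclasts are multinucleated cells of the monocyte and macrophage lineage that dissolve bone. Stromal and bone-forming cells display RANKL (Tnfsf11), which binds RANK (Tnfrsf11a) on osteoclast precursors, while osteoprotegerin (Tnfrsf11b) is a secreted decoy that captures RANKL. RANK signals through NF-kB and AP-1 to NFATc1, which switches on genes for cell fusion (Ocstamp, Atp6v0d2), attachment to bone (Itgb3) and resorption (Acp5, Ctsk). In the growing jaw, osteoclasts shape new bone as it is laid down.

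Levels are log2 signals normalised by the authors with RMA, differences are mutant minus control unless stated, and errors are SE of the fit for differences and SD of 3 arrays for group levels. Array medians lay between 7.03 and 7.12, and the filter level, the 40th percentile of an array, lay between 6.33 and 6.47. Levels under it were read as background, and a difference from a group mean under it is a lower limit, with no fold given. A gene was called where limma's adjusted p was under 0.05. Nothing in the labels ties the 3 arrays of a group to separate embryos, and the p-values therefore measure array-to-array spread, which may be technical. Arrays correlated with the others of their group at r of 0.988 to 0.996, but 6 of the 24, all from the maxilla, correlated better with another group. The mutant distal maxilla array numbered 3 did so with the mutant distal mandible (0.9903 against 0.9898), and the mutant proximal maxilla array numbered 3 with the mutant proximal mandible (0.991 against 0.988). Control distal maxilla arrays 1 and 2 did so with the mutant distal maxilla (0.9925 against 0.9920 and 0.9919 against 0.9918). Mutant proximal maxilla arrays 1 and 2 also did so with the mutant distal maxilla (0.9919 against 0.9918 and 0.9915 against 0.9907). On 8 of the 12 mutant arrays, and on 0 control arrays, Xist and Y-linked transcripts were both above 8.47. The labels do not say whether embryos, or embryos of both sexes, were pooled. Because this mix was seen in mutants alone, its part in the differences between genotypes cannot be told apart from that of genotype. Tgfbr1, the targeted gene, had a mean level of 12.15 in controls and 12.41 in mutants (0.26 ± 0.04, limma adjusted p = 0.000146). Its probe set may lie outside the deleted part, so this value checks nothing.

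In the mandible of the mutants, the osteoclast genes and the RANK ligand were lower. In the distal mandible 8 of the 9 genes tested fell and 0 rose, where 7.98% of all genes tested fell, and in the proximal mandible 9 of 9 fell, where 10.4% of all genes did. The largest differences there were those of Acp5 (-3.12 and -3.26 in the distal and proximal mandible) and Atp6v0d2 (-2.39 and -2.99). In the maxilla fewer genes were called. In the distal maxilla it was 0 of 9 by limma (2 of 9 at an unadjusted p under 0.05), where 2.96% of all genes changed. In the proximal maxilla 2 of 9, Nfatc1 and Tnfrsf11b, fell, where 4.79% of all genes did. Not every maxillary difference was smaller. That of Tnfrsf11b was -1.15 in the proximal maxilla and -0.76 in the proximal mandible. That of Tnfrsf11a was -0.36 in the distal maxilla and -0.25 in the distal mandible. In these bulk samples, fewer cells that express these genes and less of their RNA per cell cannot be told apart. Those cells need not be osteoclasts, since stromal and bone-forming cells display RANKL.

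The median difference of the 9 genes was -1.30 distally and -1.73 proximally in the mandible, where that of all genes tested was 0.04 at both ends. In the maxilla it was -0.36 distally and -0.60 proximally, against 0.04 and 0.03 for all genes. Averaged over the 4 regions, 8 of 9 genes fell, where 15.3% of all genes did, with a median of -0.95 against 0.02 for all genes. Itgb3 was the gene not called. Ocstamp passed the filter only through the control mandible, so a difference between that group and any other was in part a condition of its being tested. Without it, 7 of 8 genes fell in the distal mandible, 8 of 8 in the proximal mandible and 7 of 8 in the mean effect.

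**Figure D1:**
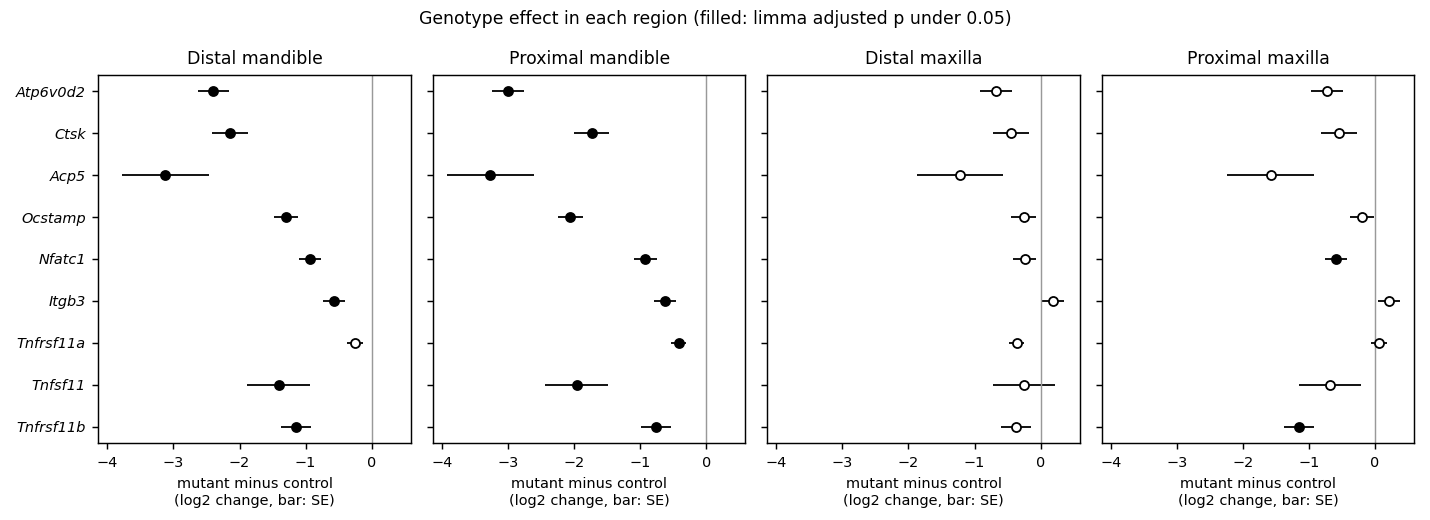
Difference between mutant and control (log2 change, horizontal axis) of the 9 genes tested in each of the 4 regions. Points are differences between means of 3 arrays, bars are SE, and filled points are called. In the mandible the points reach -3.26 (Acp5, proximal), and in the maxilla only Nfatc1 and Tnfrsf11b of the proximal part are filled.

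The controls themselves differed between the jaws. Of the 9 genes, 7 were higher in the control mandible than in the control maxilla, where 16.7% of all genes were, with a median difference of 1.31 against 0.01 for all genes. Without Ocstamp, whose maxillary levels were all in the background, it was 6 of 8. The difference was 2.68 ± 0.46 for Acp5 (6 arrays per jaw, 6.40-fold, limma adjusted p = 0.000152), 2.51 ± 0.17 for Atp6v0d2 (5.71-fold, adjusted p = 6.52e-09) and 2.27 ± 0.34 for Tnfsf11 (4.81-fold, adjusted p = 3.07e-05). Ctsk was higher by 1.31 ± 0.19, Ocstamp by 1.76 ± 0.13, Itgb3 by 0.65 ± 0.12 and Tnfrsf11a by 0.27 ± 0.08. Nfatc1 (0.21 ± 0.12, adjusted p = 0.195) and Tnfrsf11b (-0.29 ± 0.16, adjusted p = 0.184) were not called. For Nfatc1 this rested on the probe set: with the mean of its probe sets the difference was 0.43 (adjusted p = 0.00123). The genotype effects below use the same control arrays as this comparison, so the 2 are not independent.

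Along the control mandible, 0 of the 8 genes other than Ocstamp were called between the ends by limma (2 at an unadjusted p under 0.05), where 2.54% of all genes were lower at the distal end. Ocstamp, which passed the filter on 3 proximal arrays and 1 distal array of that jaw, differed by -0.80 ± 0.19 (adjusted p = 0.0144), and its call was lost without the distal array numbered 1 or 3 or the proximal array numbered 2 (adjusted p = 0.0683 to 0.0898). Atp6v0d2 differed by -0.72 ± 0.24 (adjusted p = 0.0953), and that value was called once replicate numbers entered as blocks (0.0307). Along the control maxilla 0 of 9 were called by limma (0 at an unadjusted p under 0.05), where 10.9% of all genes were.

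Tnfsf11 encodes RANKL, the cytokine that osteoclast precursors need. In the distal mandible its level was 8.95, 9.03 and 8.995 in controls and 8.15, 7.90 and 6.70 in mutants. In the proximal mandible it was 8.86, 8.86 and 8.29 in controls and 5.71, 7.43 and 6.98 in mutants. All mandibular controls lay above all mandibular mutants, and the mutants were spread more widely (SD 0.77 and 0.89) than the controls (0.04 and 0.33).

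The proximal mandible gave a difference in Tnfsf11 of -1.96 ± 0.47 (3.89-fold, limma adjusted p = 0.0058). The distal difference of -1.41 ± 0.47 (2.65-fold) stood at the threshold, with an adjusted p of 0.0491. It was not called after a further quantile normalisation (0.0705), without a filter (0.0577), with the mean of both probe sets (0.062), with replicate numbers as random blocks (0.0684) or without any of 5 of the 6 arrays compared (0.0781 to 0.216). Without the mutant array numbered 3 it was -0.97.

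In the maxilla Tnfsf11 was near the filter level in both genotypes. Controls had 6.89, 6.13 and 6.87 in the distal part and 6.64, 5.82 and 7.04 in the proximal part. Mutants had 6.04, 5.70 and 7.39 distally and 5.47, 5.49 and 6.49 proximally. The genotypes overlapped in both parts, and the highest maxillary value of all was that of the mutant distal array numbered 3. The differences were -0.25 ± 0.47 and -0.68 ± 0.47 (adjusted p = 0.784 and 0.385). A second probe set of Tnfsf11 gave -0.85 and -1.23 in the distal and proximal mandible.

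RefSeq's promoter table (GRCm38.p6) held windows for 5 of the 10 genes, and 3 are shown because they belong to the ligand and to 2 resorption enzymes with large mandibular differences. Each window is the 250 bases before the gene start, 5′ to 3′ on the strand of the gene. The letters searched on both strands were TGAGTCA (AP-1, in 4.46% of all 32851 windows), GGAAA (NFAT core, 55.6%), GAGGAA (PU.1 core, 23.3%) and CATGTG (MITF E-box, 12.3%). Capitals mark matches, which are descriptions of letters and not binding sites. Tnfsf11 (chr14:78308044-78308293, minus strand) held 1 NFAT core, at -117 to -113 from the start. Ctsk (chr3:95498960-95499209, plus strand) held 2 PU.1 cores, at -233 to -228 and, as its reverse complement TTCCTC, at -58 to -53. Acp5 has 3 starts in the table, and the window shown (chr9:22130599-22130848, minus strand) was the one with the MITF E-box, at -90 to -85, besides 2 NFAT cores at -117 to -113 and -37 to -33, all as reverse complements (CACATG and TTTCC). The AP-1 letters were in 0 of the 8 windows of these genes.
Tnfsf11: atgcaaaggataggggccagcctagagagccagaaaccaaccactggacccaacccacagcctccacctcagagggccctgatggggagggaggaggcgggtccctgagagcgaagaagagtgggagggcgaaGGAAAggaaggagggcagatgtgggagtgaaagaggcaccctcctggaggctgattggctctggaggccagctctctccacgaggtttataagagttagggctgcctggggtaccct
Ctsk: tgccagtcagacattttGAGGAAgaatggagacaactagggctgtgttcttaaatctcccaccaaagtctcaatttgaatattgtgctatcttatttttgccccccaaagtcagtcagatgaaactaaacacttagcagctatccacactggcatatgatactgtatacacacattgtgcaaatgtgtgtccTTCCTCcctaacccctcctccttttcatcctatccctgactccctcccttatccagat
Acp5: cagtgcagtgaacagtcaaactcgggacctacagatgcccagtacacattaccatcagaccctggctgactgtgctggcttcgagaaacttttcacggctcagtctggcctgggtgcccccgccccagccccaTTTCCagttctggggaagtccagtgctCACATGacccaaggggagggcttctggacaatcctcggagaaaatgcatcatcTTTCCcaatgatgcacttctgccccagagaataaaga

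Tnfrsf11b encodes osteoprotegerin, the decoy receptor that removes RANKL. It fell in 3 of the 4 regions, the distal maxilla being the exception. Its level in the distal mandible was 7.74, 7.41 and 7.56 in controls and 6.93, 6.31 and 6.01 in mutants, a difference of -1.15 ± 0.23 (limma adjusted p = 0.002). Its level in the proximal maxilla was 7.93, 7.47 and 7.82 in controls and 7.11, 6.41 and 6.26 in mutants, a difference of -1.15 ± 0.23 (2.22-fold, adjusted p = 0.00342). All controls exceeded all mutants in both regions.

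In the proximal mandible Tnfrsf11b was at 7.56, 7.14 and 6.92 in controls and 6.29, 6.44 and 6.61 in mutants. The arrays again did not overlap, and the difference was -0.76 ± 0.23 (limma adjusted p = 0.0226). The distal maxilla had 7.83, 7.45 and 7.53 in controls and 7.19, 7.12 and 7.36 in mutants, which is -0.38 ± 0.23 (adjusted p = 0.337). The mutant means of both mandible parts (6.42 and 6.45) lay within the range of the filter level, so these differences may be lower limits. The proximal mandible call was lost without control array 1 or 2 or mutant array 1 or 2 (adjusted p = 0.0505 to 0.125), and the proximal maxilla call when only the 6 arrays compared were fitted (0.0676). Control array 1 was the highest of its group in 4 of 4 regions. A second probe set of Tnfrsf11b was below the filter on all 24 arrays and gave -0.23 in the distal mandible.

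Tnfrsf11a encodes RANK, the receptor. Its levels lay close to the filter and its differences were small. The proximal mandible had 7.07, 7.20 and 6.95 in controls and 6.68, 6.59 and 6.71 in mutants, a difference of -0.42 ± 0.12 (1.34-fold, limma adjusted p = 0.0145). That call was lost without control array 2 (0.079) or mutant array 2 (0.0589). The distal mandible gave -0.25 ± 0.12 (adjusted p = 0.152), with mutants of 6.53 to 6.80 under controls of 6.84 to 6.95. The distal maxilla gave -0.36 ± 0.12 (adjusted p = 0.0926), also without overlap and called without control array 2 (-0.46, 0.0357), and the proximal maxilla 0.06 ± 0.12, with overlap. Averaged over regions, Tnfrsf11a fell by 0.24 ± 0.06 (adjusted p = 0.00238).

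Nfatc1 encodes the transcription factor that drives osteoclast differentiation, and it is also expressed in other cells, such as endothelium of the heart valves. It was above the filter on all 24 arrays. Distal mandible levels were 9.68, 9.60 and 9.60 in controls and 8.91, 8.93 and 8.25 in mutants. Proximal mandible levels were 10.20, 10.33 and 10.0003 in controls and 9.17, 9.18 and 9.42 in mutants. No mandibular mutant reached a control of its region, and the differences were -0.93 ± 0.17 (1.90-fold, limma adjusted p = 0.00113) and -0.92 ± 0.17 (1.89-fold, adjusted p = 0.000685).

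In the proximal maxilla Nfatc1 was at 9.60, 9.77 and 9.91 in controls and 9.17, 9.21 and 9.11 in mutants, also without overlap. The difference of -0.60 ± 0.17 (1.51-fold) had a limma adjusted p of 0.0291, which rose to 0.0698 without both mutant maxilla arrays numbered 3 and to 0.148 with the mean of the probe sets (-0.30). Leaving out control array 2 or 3 or mutant array 1 or 3 also ended the call (adjusted p = 0.0572 to 0.116). In the distal maxilla the genotypes overlapped (-0.24 ± 0.17, adjusted p = 0.41). Nfatc1 has 5 probe sets, of which 4 reached the filter on at least 3 arrays. The differences of all 5 were negative in each of the 4 regions, and therefore also in the mean. The distal maxilla value of 1 of them was only -0.05.

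Atp6v0d2 encodes the d2 subunit of the proton pump, which also takes part in the fusion of osteoclast precursors. Its distal mandible levels were 8.94, 9.04 and 9.02 in controls and 6.57, 6.50 and 6.74 in mutants. Its proximal mandible levels were 9.83, 9.81 and 9.52 in controls and 6.47, 6.45 and 7.27 in mutants. The mandibular mutants thus lay in the range of the maxillary controls, whose levels were 6.97, 6.30 and 7.36 distally and 6.68, 6.50 and 7.27 proximally. The maxillary mutants were under the filter level on 5 of 6 arrays, with 6.07, 6.05 and 6.50 distally and 5.94, 6.16 and 6.15 proximally.

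The mandibular differences of Atp6v0d2 were -2.39 ± 0.24 (5.26-fold, limma adjusted p = 6.23e-06) and -2.99 ± 0.24 (7.96-fold, adjusted p = 8.34e-07). In the maxilla they were -0.67 ± 0.24 distally, with overlap, and -0.73 ± 0.24 proximally, without (adjusted p = 0.129 and 0.0574). Both mutant means there were under the filter level, so these values are lower limits, and both were called without control array 2 of their own region (adjusted p = 0.0263 and 0.0421). A second probe set of Atp6v0d2 gave -2.73 and -3.47 in the distal and proximal mandible.

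Ocstamp encodes a membrane protein needed for the fusion of osteoclast precursors. Its level passed the filter on 4 of 24 arrays, all of them control mandible. Distal mandible controls had 6.30, 6.67 and 6.26 and mutants 4.86, 5.11 and 5.36. Proximal mandible controls had 7.18, 7.45 and 6.99 and mutants 4.92, 5.06 and 5.47. The differences of -1.30 ± 0.19 and -2.06 ± 0.19 (limma adjusted p = 0.000202 and 2.36e-06) are lower limits, and every maxillary array, between 4.69 and 5.42, was in the background.

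Itgb3 encodes the beta3 chain of the integrin that attaches osteoclasts to bone, and it also occurs on platelets and endothelium. In the distal mandible it was at 7.84, 7.90 and 8.03 in controls and 7.41, 7.25 and 7.39 in mutants, a difference of -0.57 ± 0.17 (1.49-fold, limma adjusted p = 0.0245). In the proximal mandible it was at 8.29, 8.21 and 8.27 in controls and 7.63, 7.27 and 8.02 in mutants, a difference of -0.62 ± 0.17 (1.53-fold, adjusted p = 0.0124). The groups did not overlap, but mutant array 3 of the proximal part lay near the controls.

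Both mandibular calls of Itgb3 depended on single arrays. The distal one was lost without control array 2 or 3 or mutant array 2 (limma adjusted p = 0.0584 to 0.0975), and the proximal one without mutant array 2 (0.0923) or with only the 6 arrays compared (0.0528). In the maxilla the differences were 0.18 ± 0.17 and 0.21 ± 0.17, with overlapping arrays (adjusted p = 0.548 and 0.452). Averaged over the regions Itgb3 differed by -0.20 ± 0.08 (adjusted p = 0.0641). Once replicate numbers entered as blocks, that mean was called (0.0146), and without both mutant maxilla arrays numbered 3 it was -0.28 (0.00743). It was also called without control distal maxilla array 2 or without any 1 of mutant array 3 of the proximal mandible, distal maxilla or proximal maxilla (0.014 to 0.0497).

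Acp5 encodes tartrate-resistant acid phosphatase, the classical stain of osteoclasts. Its mandibular controls were at 10.12, 10.48 and 10.41 distally and 10.78, 10.93 and 10.64 proximally. Its mandibular mutants were at 7.15, 6.67 and 7.81 distally and 6.67, 6.74 and 9.16 proximally. Every mandibular mutant lay below every mandibular control, and the proximal mutant array 3 came closest to them. The differences were -3.12 ± 0.66 (8.72-fold, limma adjusted p = 0.00317) and -3.26 ± 0.66 (9.61-fold, adjusted p = 0.00144).

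In the maxilla Acp5 was at 8.37, 7.07 and 8.72 distally and 7.56, 6.99 and 8.58 proximally in controls. The mutants were at 6.09, 6.22 and 8.18 distally and 5.74, 5.37 and 7.29 proximally. On mutant arrays 1 and 2 the gene was in the background, while mutant array 3 lay within the control range in both parts. The differences were -1.22 ± 0.66 and -1.58 ± 0.66 (limma adjusted p = 0.288 and 0.126). The mutant mean of the proximal maxilla (6.13) was under the filter level, so the proximal value is a lower limit. Without both mutant maxilla arrays numbered 3 the proximal difference was -2.16 and was called (0.0408).

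Ctsk encodes cathepsin K, the protease that cuts bone collagen, and it is also expressed by periosteal and other mesenchymal cells. Its mandibular controls were at 11.67, 11.86 and 12.03 distally and 12.32, 12.37 and 12.20 proximally. The mutants were at 9.74, 9.29 and 10.09 distally and 10.36, 10.10 and 11.23 proximally. The groups stood apart, and the differences were -2.14 ± 0.27 (4.42-fold, limma adjusted p = 5.18e-05) and -1.73 ± 0.27 (3.33-fold, adjusted p = 0.000158).

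The maxillary levels of Ctsk were 10.77, 10.38 and 10.91 distally and 10.71, 10.67 and 11.14 proximally in controls. In mutants they were 9.93, 9.89 and 10.89 distally and 10.13, 10.28 and 10.48 proximally. The distal arrays overlapped and the proximal ones did not, and neither difference was called (-0.45 ± 0.27 and -0.54 ± 0.27, limma adjusted p = 0.34 and 0.208). With 1 array left out, the distal difference ranged from -0.78 to -0.27.

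Calcr encodes the calcitonin receptor, a marker of mature osteoclasts. Its levels of 4.66 to 5.79 were in the background in every group. Fitted without the filter, it differed by -0.63 ± 0.16 proximally (limma adjusted p = 0.0112) and by -0.04 ± 0.16 distally (0.935) in the mandible, and no fold can be given.

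Ranked by level, the control proximal mandible came first for 7 of the 9 genes tested. The exceptions were Tnfsf11, highest in the control distal mandible (8.99 ± 0.04 against 8.67 ± 0.33), and Tnfrsf11b, highest in the control proximal maxilla (7.74 ± 0.24). For Atp6v0d2, Acp5, Ctsk and Ocstamp the proximal and the distal control mandible stood first and second with no overlap between neighbours. Below them, each group of Acp5, Ctsk and Ocstamp overlapped with the next in order.

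**Figure D2:**
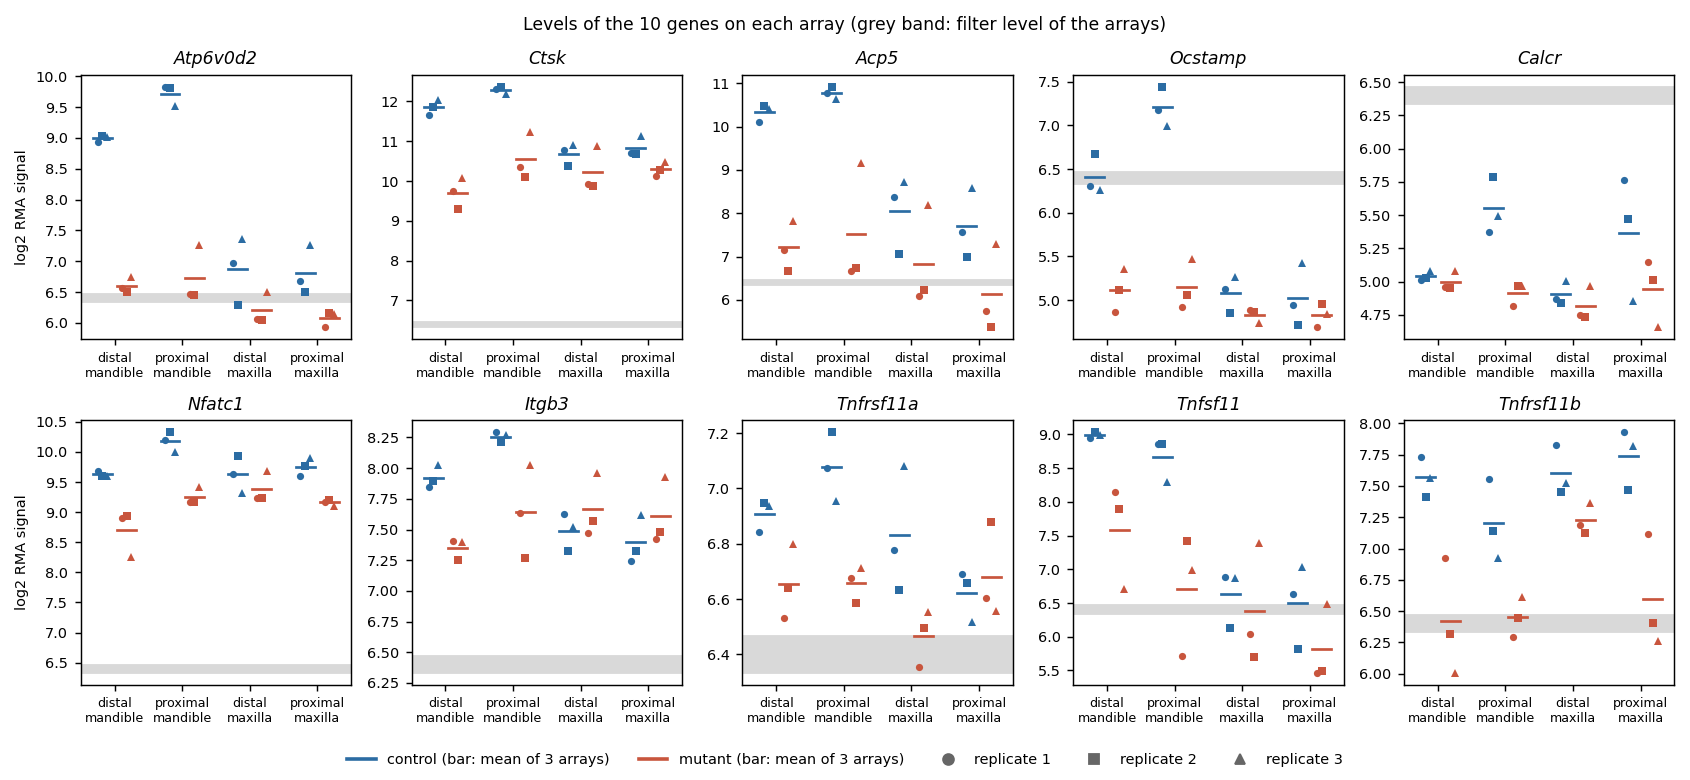
Level (log2 RMA signal, vertical axis, scaled for each gene) of the 10 genes on each of the 24 arrays, by region (horizontal axis). Points are arrays, with their replicate number as the shape, bars are means of 3 arrays, and the grey band is the filter level of 6.33 to 6.47. Atp6v0d2, Ctsk, Acp5 and Ocstamp are highest in the control mandible, and all Calcr points lie under the band.

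Mutant array 3 was the highest of its group in 4 of 4 regions for Ctsk and Acp5 and in 3 of 4 for Atp6v0d2, Itgb3 and Tnfrsf11a. The osteoblast list described below also had its highest mutant value on array 3 in the proximal mandible (11.65 against 10.09 and 10.21), the distal maxilla (11.28 against 9.81 and 9.73) and the proximal maxilla (9.67), and the macrophage list had it in all 4 regions. The part of these in the levels of the osteoclast genes was not tested.

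The effect of genotype was more negative in the mandible than in the maxilla for 4 of 9 genes, and for 3 of 8 without Ocstamp, where 4.31% of all genes differed in that direction. The difference of the effects was -1.99 ± 0.24 for Atp6v0d2 (limma adjusted p = 0.000137), -1.44 ± 0.27 for Ctsk (0.00334), -1.45 ± 0.19 for Ocstamp (0.000201) and -0.79 ± 0.17 for Itgb3 (0.00753). Every maxillary level of Ocstamp was in the background, so its value follows from its difference in the mandible. For Atp6v0d2 the mutant maxillary means under the filter limit how far the maxillary effect could go. The same holds in the proximal maxilla for Acp5 and Tnfsf11. Acp5 gave -1.79 ± 0.66 (adjusted p = 0.111), which was called once replicate numbers entered as blocks (0.0145) or without mutant proximal mandible array 3 (-2.20, 0.0212). Tnfsf11 gave -1.22 ± 0.47 (0.137), Nfatc1 -0.50 ± 0.17 (0.0803), Tnfrsf11a -0.18 ± 0.12 (0.403) and Tnfrsf11b -0.19 ± 0.23 (0.691). Nfatc1 was called with replicate numbers as random blocks (0.0475), with the mean of its probe sets (0.0205) or without control distal maxilla array 2 (0.0377). Of the 9 genes, 5 were called with fixed and 6 with random replicate blocks. Between the ends, the effect of genotype differed for 0 of 9 genes by limma (0 at an unadjusted p under 0.05), where 0.115% of all genes did.

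Of 17 other genes of the osteoclast programme tested, 10 fell and 2 rose in the mean effect over 4 regions, with a median of -0.20 against 0.02 for all genes. Over all genes, 15.3% fell and 25.2% rose in that effect, and the counts of the lists below are to be read against these shares. By region, 9 and 10 of the 17 fell in the distal and proximal mandible, where 7.98% and 10.4% of all genes did. In the distal maxilla 0 of the 17 fell and 1 rose, where 156 of all 13942 genes fell and 257 rose. In the proximal maxilla 0 of the 17 fell, where 4.79% of all genes did. Values below are of the mean effect unless stated otherwise. Mmp9, a protease of osteoclasts and of the cartilage to bone transition, fell by 1.64 ± 0.23 (limma adjusted p = 2.05e-05), and Dcstamp, a fusion protein related to Ocstamp, by 1.02 ± 0.09 (1.29e-07). Car2, carbonic anhydrase 2, which supplies protons for resorption, fell by 0.51 ± 0.09, but its regions differed: it fell by 1.06 and 1.20 in the distal and proximal mandible and rose by 0.71 in the distal maxilla (adjusted p = 0.044). Tcirg1, the a3 subunit of the proton pump, fell by 0.28 ± 0.04. The 14 general subunits of the pump, which all cells use, had a median of -0.09, with 6 lower and 0 higher. Of these, Atp6v0e differed by -0.25, Atp6ap2 by -0.21, Atp6v1a by -0.19 and Atp6ap1 by -0.13.

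Among 23 genes that carry the signal of RANK, 6 fell and 2 rose, with a median of -0.04. Jdp2, an AP-1 family factor needed for osteoclast formation, fell by 0.78 ± 0.07 (limma adjusted p = 2.41e-07), and Fos, the AP-1 subunit that acts before Nfatc1, by 0.53 ± 0.11 (0.000848). Lgr4, a receptor reported to bind RANKL, fell by 0.16, and Tab1, an adaptor of the TAK1 kinase, rose by 0.18. Of 10 genes of ITAM costimulation, the second signal that osteoclast precursors need, 5 fell and 1 rose (median -0.26). Tyrobp, the adaptor DAP12, fell by 0.61, Lcp2 by 0.51 and Plcg2, the phospholipase that raises calcium, by 0.38, while Vav3 rose by 0.42.

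Of 6 genes of the M-CSF axis, which keeps precursors alive, 4 fell and 0 rose (median -0.34). By region, 4 of 6 fell in each part of the mandible and 0 of 6 in each part of the maxilla, to be read against the regional shares above. Csf1r, the receptor, fell by 0.64 ± 0.10 (limma adjusted p = 6.02e-05), Csf1, the ligand made by stroma, by 0.35 ± 0.06 (6.07e-05), Csf2rb by 0.67 and Spi1, the factor PU.1, by 0.34. Among 14 stromal regulators of RANKL, 6 rose and 3 fell (median 0.00). Ptger4, a prostaglandin E2 receptor, rose by 0.69, Wnt5a by 0.66 and Il6st, the receptor chain gp130, by 0.27, while Sema4d, a semaphorin made by osteoclasts, fell by 0.45.

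Markers of some other cell types were also lower in the mutants, though not in every region. Of 16 macrophage markers tested, 9 fell and 0 rose in the mean effect (median -0.43), with Ptprc at -0.77, Lyz2 at -0.76 and Pf4 at -0.57. Their mean level over the list was 8.37 to 8.74 in control and 7.45 to 8.20 in mutant distal mandible, and 8.67 to 8.9985 against 8.10 to 8.48 in the proximal mandible. In the proximal maxilla it was 8.40 to 9.002 against 8.52 to 9.02. The macrophage markers Itgam and Cd163 were below the filter in all 8 groups. In the control jaws 2 of 16 macrophage markers were higher in the mandible and 0 lower, with a median of -0.01, where 16.7% of all genes were higher.

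Of 10 osteoblast markers, 9 fell and 0 rose in the mean effect (median -1.38). Among them were the bone matrix genes Omd (-1.71), Ifitm5 (-1.91), Col1a1 (-1.05) and Sparc (-0.45). The fall of this list, too, was called more often in the mandible. There 10 of 10 fell distally and 8 of 10 proximally, while the maxilla had 0 of 10 distally and 4 of 10 proximally. The effect of genotype was more negative in the mandible than in the maxilla for 3 of the 10. The list mean was 11.47 to 11.72 in control and 8.94 to 9.67 in mutant distal mandible. At the proximal end of that jaw it was 12.46 to 12.59 against 10.09 to 11.65. For the maxilla it was 9.94 to 10.84 against 9.73 to 11.28 distally, and 10.18 to 11.25 against 8.51 to 9.67 proximally. Of 5 markers of hypertrophic cartilage 4 fell and 0 rose (median -2.04), among them Mmp13 (-3.93), Panx3 (-2.07), Ibsp (-2.04), which is also on the osteoblast list, and Ihh (-0.41). Col10a1, a further marker of hypertrophic cartilage, was not tested and was below the filter in all 8 groups. Mmp13 and Ihh were below it in the mutant proximal maxilla. In controls 9 of the 10 osteoblast markers were higher in the mandible than in the maxilla (median 1.47). Of 12 endothelial markers, 3 fell, Kdr, Cldn5 and Esam, and the median was 0.01. The part of each of these cell types in the levels of the osteoclast genes was not tested.

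**Figure D3:**
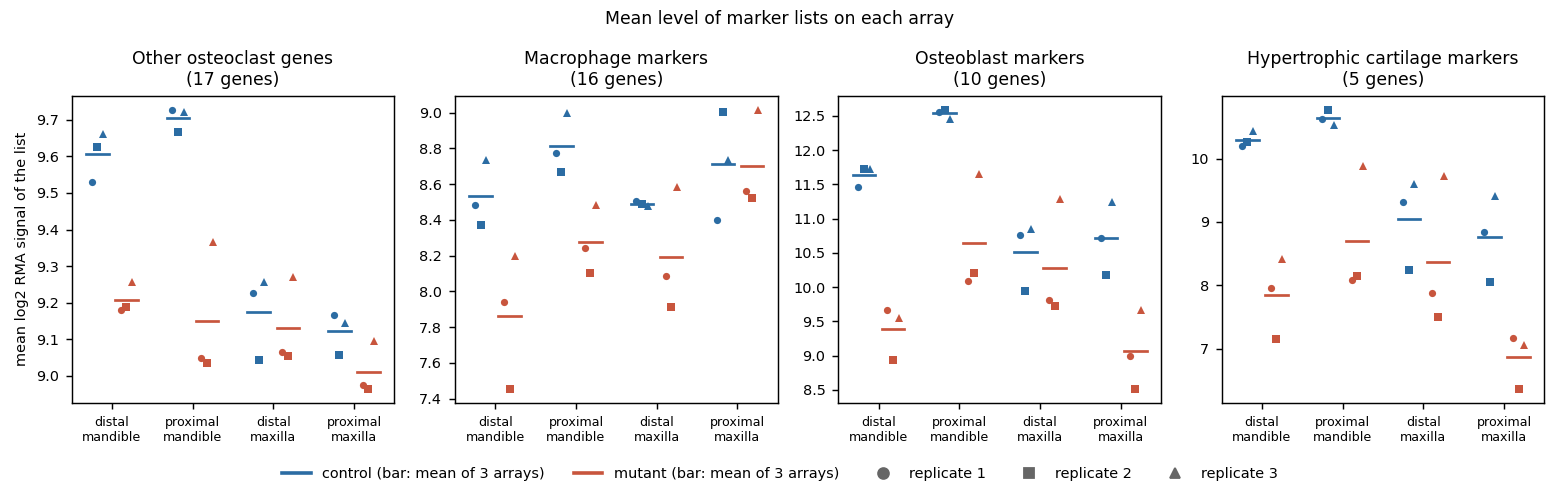
Mean level of 4 gene lists (log2 RMA signal averaged over the genes of the list, vertical axis, scaled for each list) on each of the 24 arrays, by region (horizontal axis). Points are arrays, with their replicate number as the shape, and bars are means of 3 arrays. The osteoblast list reaches 12.59 in the control proximal mandible and 8.51 at its lowest, in the mutant proximal maxilla, while the macrophage list overlaps between genotypes there.

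Across the 24 arrays the resorption and fusion genes followed each other. Atp6v0d2 correlated with Ocstamp at r = 0.98, with Acp5 at 0.95, with Ctsk at 0.92 and with Tnfsf11 at 0.84. Ocstamp was above the filter on 4 of 24 arrays, all of them control mandible. Its r with other genes therefore rests largely on the difference between the control mandible and the rest. Nfatc1 was less like Atp6v0d2 (0.62), and Tnfrsf11b correlated with the others at 0.13 to 0.67, most with Nfatc1. The arrays share groups and numbers, so these values describe and test nothing. Taken as deviations from group means, Ctsk and Acp5 stood at 0.91 and Atp6v0d2 and Acp5 at 0.84, while Atp6v0d2 and Nfatc1 were at -0.02. Other pairs dropped: Atp6v0d2 and Tnfsf11 to 0.48, Ctsk and Ocstamp to 0.48, and Acp5 and Ocstamp to 0.54.

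**Figure D4:**
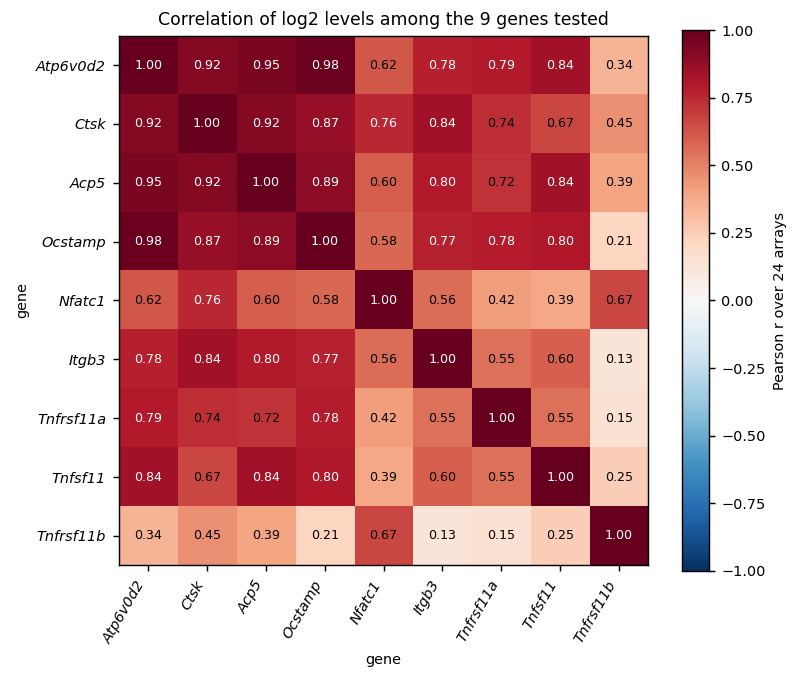
Pearson correlation of the log2 levels over 24 arrays between each pair of the 9 genes tested (both axes), with r printed in each square and as the colour from -1 to 1. The squares of Atp6v0d2, Ctsk, Acp5 and Ocstamp hold 0.87 to 0.98, and the row of Tnfrsf11b holds 0.13 to 0.67.

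Among all genes tested, those most like Atp6v0d2 over the 24 arrays were Dcstamp (r = 0.98), Ocstamp (0.98), Ccl9 (0.96), Pstpip1 (0.96) and Slc37a2 (0.95). Those most like Ctsk were Col1a2 (0.97), Col22a1 (0.96), Sparc (0.96), Kcnn4 (0.95) and Ifngr1 (0.94). Tnfsf11 was most like Mmp9 (0.93), Antxr1 (0.91), Itgav (0.90), Unc5b (0.90) and Mkx (0.90). Tnfrsf11b was most like Bmp5 (0.88), Slc35a3 (0.87), Ccdc47 (0.87), Papss2 (0.85) and Tmem117 (0.85). These lists of 5 share no gene with each other, and how often such lists overlap among all genes was not tested.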

How the data were processed

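Total RNA of 24 samples was hybridised to single-colour mouse oligonucleotide arrays, per the labels. RMA was run by the authors, who deposited log2 signals, per the submitters' processing notes, with no version given. The base was read from the range of 3.29 to 14.86. Probe set annotation and a RefSeq table of GRCm38.p6 gave the gene names: of 45101 probe sets, 34945 had 1 symbol, 932 several and 9160 none, 64 were controls, and 34741 were matched by gene identifier, with 0 symbols changed. For each of 18193 genes the probe set of highest mean was kept, and 13942 above the 40th percentile of the array on at least 3 arrays were tested.

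A limma 3.58.1 model (R 4.3.3) with 1 mean per group and no covariates was fitted to all 24 arrays, with eBayes, a mean-variance trend and two-sided Benjamini-Hochberg adjusted p-values over all genes in each of 10 comparisons. The script was tested on simulated data. The number of arrays limits the precision. Python 3.11.15 with numpy 2.4.6, pandas 2.3.3 and matplotlib 3.10.9 made tables and plots. The 10 genes, the lists and the rules were chosen with earlier results of these data known. Up to 4 called genes of a list were named, by the largest moderated statistic in the mean effect. Arrays of the same number deviated together across genes, with every r over 0.1, in the mean effect (0.16, 0.13 and 0.36), in both interactions, between the control jaws and within the control mandible, and not in the other comparisons. Alternatives were other filters, a further quantile normalisation, array weights, the mean of probe sets, no trend, the number as a fixed or random block, averaged regions, only the arrays compared, each array left out, both mutant maxilla arrays numbered 3 left out, and, chosen after seeing the data, the Y-linked level as a covariate. Protein sequences were not used here.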

Additional observations from a re-analysis of the deposited data

Results flagged for a closer look

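The effect of genotype differed between the jaws in a test of the difference itself for 4 genes, and in each it was more negative in the mandible. The mandibular minus the maxillary effect was -1.99 for Atp6v0d2, -1.44 for Ctsk, -1.45 for Ocstamp and -0.79 for Itgb3 on the log2 scale (limma, adjusted over all genes). In the maxilla the level of Ocstamp was in the background in both genotypes and that of Atp6v0d2 in the mutants. Ocstamp was tested only because control mandible arrays passed the filter. The test for an outlying array needs at least 4 arrays in a group and was not run here.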

How the results depend on the processing

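Of the settings run for single genes, 2910 kept direction and side of the threshold, 38 brought a call, 35 lost one and 5 turned the sign, all of differences that were not called: Itgb3 in the distal maxilla with its other probe set (-0.051), Tnfrsf11a in the proximal maxilla without mutant replicate 2 (-0.042, with 0.119 without mutant replicate 3 at the other end), Tnfsf11 in the distal maxilla without mutant replicate 2 (0.087, with -0.76 without mutant replicate 3 at the other end) or with its other probe set (0.067), and Tnfrsf11b between the control jaws with its other probe set (0.035). The number of the 9 genes called moved in the distal maxilla to 2 with array weights and 1 with the replicate block. For the proximal maxilla it was 1 with a filter at the 60th percentile, with the mean of probe sets or with only the arrays compared, and 4 with array weights or the replicate block. In the mean effect the stricter filter, which tested fewer of these genes, left 5, and in the control mandible (distal against proximal) it was 0 with that filter, 4 with array weights, 2 with the replicate block, 3 with it as a random block and 6 with only the arrays compared. Leaving out each array gave 6 to 8 in the distal mandible, 0 to 2 in the distal maxilla, 6 to 9 in the proximal mandible, 1 to 2 in the proximal maxilla, 8 to 9 in the mean effect and 0 to 1 in the control mandible. With regions averaged and the replicate block, the same 8 genes fell in the mean effect. Over all genes and apart from arrays left out, calls ranged under the other settings from 2056 to 4268 in the distal mandible, 23 to 1194 in the distal maxilla, 2067 to 3703 in the proximal mandible, 320 to 2397 in the proximal maxilla and 3324 to 6533 in the mean effect. With 1 array left out they were 1243 to 1825, 47 to 750, 1922 to 2751, 615 to 1439 and 5256 to 5755 in that order. The cause of these changes was not tested. Signals near the filter limit Atp6v0d2, Ocstamp, Tnfsf11, Tnfrsf11a, Tnfrsf11b and Calcr, and Acp5 in the mutant maxilla.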
